A study of Danio rerio with 6 samples.

Results

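The cytosolic ribosomal protein genes were examined in ZMEL1, a zebrafish melanoma cell line, and in its drug-resistant derivative ZMELR1. Members were taken by name from the first column of the count table, as every gene whose symbol begins with rpl, rps or rplp and a number, or is rpsa, after endings that number related copies had been removed. The S6 kinases (names beginning with rps6k), names holding bp and rps27l were left out. This gave 83 genes of the 27126 names in the table, 48 of the large subunit and 35 of the small subunit. All 83 were abundant enough to be tested, as were 16589 genes in all. As the table spells them, some names such as RPL29 and RPL37A stand in capitals. A further 4 ribosomal proteins, gnb2l1 among them, go by other names and were treated apart.

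The cytosolic ribosome is built from a large and a small subunit, each a body of ribosomal RNA studded with ribosomal proteins, nearly all of which are present in a single copy per ribosome. In vertebrates the mRNAs of these proteins begin with a run of pyrimidines, the TOP motif, through which the kinase mTOR and the RNA-binding protein LARP1 set their translation and stability together. Zebrafish carry duplicated copies of some of these genes, and in mammals rpl5 and rpl11 that are not built into ribosomes bind Mdm2, the ubiquitin ligase of p53.

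From each line 3 libraries of polyA RNA were sequenced, and the study calls them independent biological replicates. ZMEL1 was grown from a single melanoma of a single fish that carried an activated BRAF gene under the promoter of mitfa, was p53-/- and mitfa-/-, and had been rescued with a cassette of mitfa and GFP, and ZMELR1 was selected from ZMEL1 with a BRAF inhibitor, so both lines share all of these alleles and each stands for 1 line. Culture was at 28.5 °C with 10% serum for both, ZMEL1 with DMSO and ZMELR1 with PLX4032 (vemurafenib) at 1 µM, so that the history of selection and the drug in the medium cannot be told apart. Libraries held 42591832 to 83741911 counts. Of 12 melanocyte and neural crest markers 11 were in the table, and their summed level was 1012 to 1198 CPM (counts scaled to a library of standard size, per 1e6) in ZMEL1 and 1771 to 1954 CPM in ZMELR1, carried mostly by mitfa and sox10, while dct lay between 1.13 and 25.8 CPM. Summed markers reached at most 29.4 CPM for leukocytes, 41.5 CPM for fibroblasts, 1.64 CPM for muscle (myog was at 0), 3.13 CPM for erythroid and 1.31 CPM for endothelial cells, and keratinocyte markers summed to 2042 to 3305 CPM, nearly all of it krt8.

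Ribosomal protein genes took more of the counts in ZMELR1 than in ZMEL1 within every pair of libraries of the same number, but the lines overlapped. They held 17.1%, 12.2% and 14.0% of all counts in ZMEL1 and 20.8%, 15.3% and 19.7% in ZMELR1, in the order of the replicate numbers, which holds for all values per library given here. Replicate 2 was the lowest of its line in both, and ZMELR1 replicate 2 stood below ZMEL1 replicate 1. The means were 14.4% ± 2.47 (SD, n = 3) and 18.6% ± 2.92, a ratio of 1.29, and the difference of 4.20 percentage points was 3.79, 3.15 and 5.66 points in pairs 1, 2 and 3. In bulk RNA a larger share of these mRNAs per cell and a larger share of cells rich in them cannot be told apart.

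**Figure D1:**
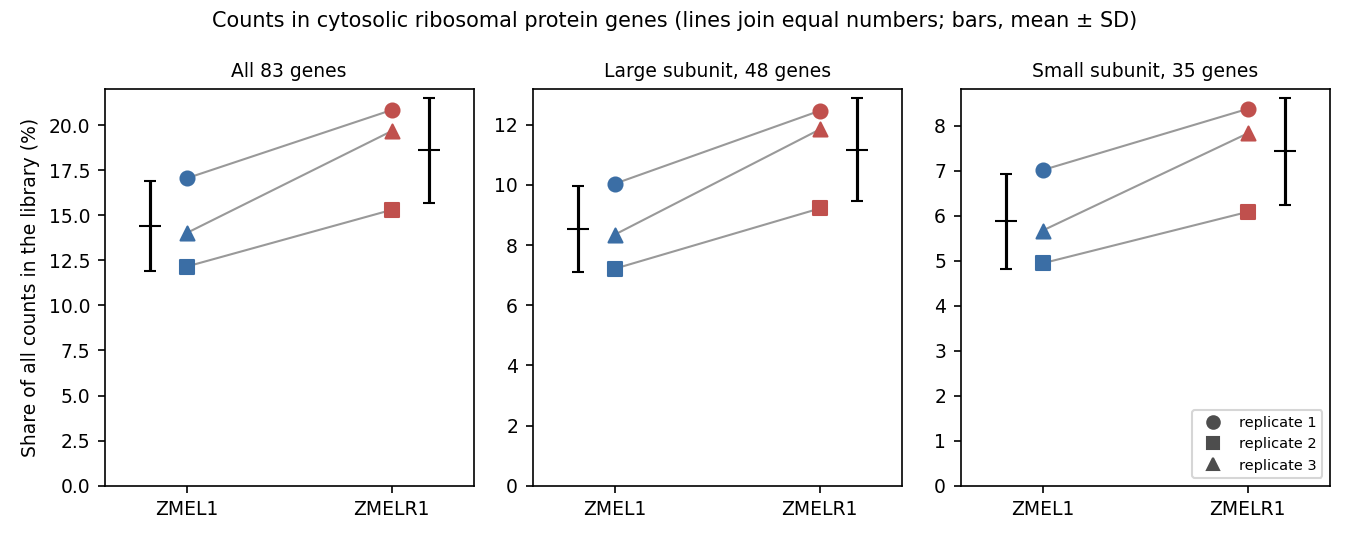
Percent of all counts in each library that fell in the 83 ribosomal protein genes and in the genes of each subunit, with lines joining ZMEL1 and ZMELR1 libraries of the same number and bars at the mean ± SD of 3 libraries. Every joining line goes up, and replicate 2 is the lowest library of both lines in all 3 panels.

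Both subunits shared in the difference. Large subunit genes held 8.53% ± 1.42 of the counts in ZMEL1 and 11.2% ± 1.72 in ZMELR1, and small subunit genes 5.87% ± 1.05 and 7.43% ± 1.20 (SD, n = 3). The ratio of large to small subunit counts was 1.43, 1.46 and 1.47 in ZMEL1 and 1.49, 1.52 and 1.51 in ZMELR1, so that the lines did not overlap in it, although it moved by only 1.04 times. That ratio varied far less between replicates than the shares themselves, since both subunits were low together in replicate 2.

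Gene by gene, no member passed the test between the lines. Each gene was tested with the quasi-likelihood F test of edgeR on the counts, and called at a Benjamini-Hochberg adjusted p under 0.05 over the 16589 genes. This called 0 of 83 members higher in ZMELR1 and 0 lower, where 3.62% of all genes were called higher and 2.68% lower, and DESeq2 and limma-voom also called 0 members. The smallest adjusted p among the members was 0.116 (rps26l). At an unadjusted p under 0.05, 11 members (13.3%) were higher and 0 were lower, against 13.2% and 11.1% of all genes, so the share of members that were higher was that of the background.

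The estimates nevertheless lay on the same side. The log2 fold change of ZMELR1 over ZMEL1 was above 0 for 78 of 83 members (94.0%) against 51.8% of all genes, and its median was 0.35 over the members (a ratio of 1.28) against 0.02 over all genes. The quartiles of the members were 0.18 and 0.52 and the whole range was -0.48 to 0.85. Their SD was 0.25, against 0.98 over all genes, which were not matched to the members in level. Per gene, the standard error was worked back from the F statistic. It had a median of 0.297, which is close to the size of the median change itself and above the SD of the members. By subunit the median was 0.40 for the large (44 of 48 above 0) and 0.34 for the small (34 of 35 above 0). The median rested on which libraries entered: it was 0.58 without ZMEL1 replicate 1, 0.17 without ZMEL1 replicate 2, 0.19 without ZMELR1 replicate 1 and 0.21 on the libraries numbered 1 and 2.

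Over all genes, libraries of the same number deviated together across the lines, and taking the number into the fit as a block changed the calls. Over the members alone this held for numbers 1 and 2 (correlations of 0.835 and 0.827) and not for number 3 (-0.0379). With the block, edgeR called 17 of 83 members (20.5%) higher in ZMELR1, beside 12.9% of all genes, and 0 lower, beside 12.0% of all genes, while 34 members (41.0%) were higher and 2 (2.41%) lower at an unadjusted p under 0.05, against 21.2% and 20.2% of all genes. Of these, 11 belong to the large subunit (22.9% of it) and 6 to the small (17.1%). The count of 17 moved with the libraries. It was 39, with 2 lower (rpl7l1 and rpl22l1), on the pairs numbered 1 and 2, beside 23.6% of all genes higher. On the pairs 1 and 3 and on the pairs 2 and 3 it was 0, beside 7.30% and 2.83% of all genes. It also moved with the scaling, to 7 of 83 when the libraries were scaled on all other genes or by RLE factors. That share was below the 12.3% and 12.2% of all genes called higher in these fits, so the excess over all genes did not hold there. With the block the median standard error of the members fell to 0.155, and the median of their log2 fold changes stayed at 0.35.

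A count that needs no model of the spread gave, on the higher side, a share near the background for the strictest pattern. It gave a larger share for the pairs on that side, and 0 members for the strictest pattern on the lower side. It rests on the scaled CPM, and how it moves with the scaling was not tested. In 13 of 83 members (15.7%) all ZMELR1 libraries lay above all ZMEL1 libraries in CPM, against 17.0% of all genes, and in 0 members all lay below, against 14.5% of all genes. These 13 were rplp0, rplp1, rplp2l, rpl4, rpl5b, rpl6, rpl13a, rpl17, rpl18, rpl21, rps4x, rps10 and rps26l. In 64 members (77.1%) the ZMELR1 library was the higher in all 3 pairs, against 32.4% of all genes. Only rpl7l1, rpl22l1, rpl39 and rps21 (4.82%) were lower in all 3 pairs, against 30.7% of all genes, and the other 15 were mixed.

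The 3 pairs were not alike. The median log2 difference over the members was 0.23 in pair 1, 0.28 in pair 2 and 0.56 in pair 3, where over all genes it was 0.05, 0.01 and -0.01. Members above 0 numbered 67, 74 and 77 of 83. Across the 83 genes, which are not independent replicates, the differences of pairs 1 and 2 had a Pearson correlation of 0.941, those of pairs 1 and 3 of 0.534, and those of pairs 2 and 3 of 0.407. Members therefore kept nearly the same order in pairs 1 and 2, and pair 3 added a wider spread.

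**Figure D2:**
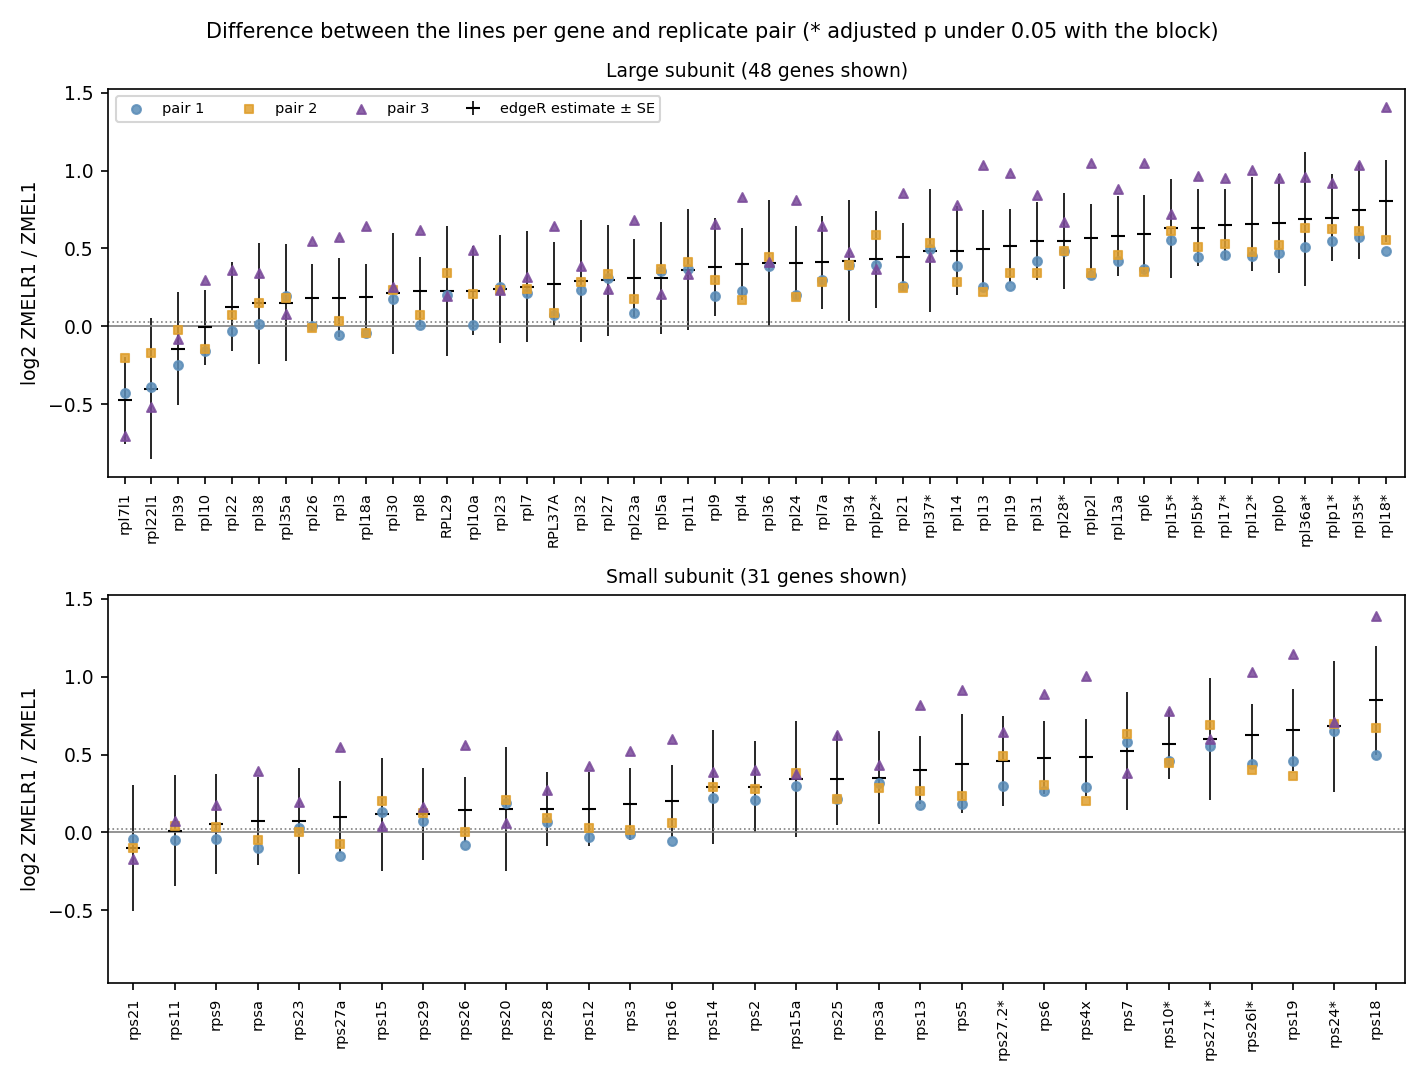
Log2 difference between ZMELR1 and ZMEL1 for 79 of the 83 ribosomal protein genes in replicate pairs 1, 2 and 3 (points) and as estimated by edgeR with its standard error (bars), ordered within each subunit, with a dotted line at the median of all genes tested. Most points lie above 0, pair 3 is the highest for most genes on the right, and an asterisk marks 16 of the 17 genes called with the replicate block.

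All genes of the ribosomal stalk had estimates above 0, as did 44 of the 48 genes of the whole large subunit. Rplp0 anchors the stalk, a flexible arm that recruits the GTPases of translation, to the ribosomal RNA, and is a common reference gene in quantitative PCR. Its level was 6448, 4599 and 5479 CPM in ZMEL1 and 8939, 6591 and 10612 CPM in ZMELR1, without overlap, a log2 fold change of 0.66 (SE 0.318; edgeR adjusted p = 0.251 unblocked, that is without the block, and 0.0663 blocked). Rplp1, which forms the arm as a dimer with rplp2, was at 4523, 3285 and 3648 CPM in ZMEL1 and 6614, 5062 and 6901 CPM in ZMELR1. This was also without overlap, with a log2 fold change of 0.70 (SE 0.279; edgeR adjusted p = 0.183 unblocked), and it was called with the block (adjusted p = 0.0414). Rpl12, at the base of the stalk, had a log2 fold change of 0.66 and was called with the block (edgeR adjusted p = 0.233 unblocked, 0.0492 blocked), although its lines overlapped. Together with rplp2 (0.43) and rplp2l (0.57), all 5 genes of the stalk and its base were above 0 in all 3 pairs. So were 83.3% of the large subunit and 32.4% of all genes. The median of the 5 was 0.66, beside 0.40 over the large subunit. With the block 3 of the 5 were called, where 22.9% of the large subunit and 12.9% of all genes were called higher. The genes of this and the next groups were grouped by role after their values had been seen.

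Rpl5 and rpl11 carry the 5S RNA into the large subunit. Rpl5b was at 2084, 1532 and 1464 CPM in ZMEL1 and 2835, 2176 and 2862 CPM in ZMELR1, all ZMELR1 libraries above all of ZMEL1, and its log2 fold change was 0.63 (SE 0.248; edgeR adjusted p = 0.176 unblocked, 0.0446 blocked). Its copy rpl5a (0.31) and rpl11 (0.36) had overlapping lines and were not called in either fit (adjusted p = 0.165 and 0.0952 with the block).

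Around the tunnel through which the new protein leaves the large subunit, 8 of 9 genes were above 0, with a median of 0.40. The whole large subunit had the same median, with 44 of 48 genes above 0, and 51.8% of all genes were above 0. Rpl17 and rpl35, both at the tunnel or its rim, were called with the block. That was 22.2% of the 9 genes, near the 22.9% of the large subunit, against 12.9% of all genes. Rpl17 was at 1239, 946 and 1033 CPM in ZMEL1 and 1702, 1362 and 1996 CPM in ZMELR1, without overlap, a log2 fold change of 0.65 (SE 0.229; edgeR adjusted p = 0.140 unblocked, 0.0358 blocked). Rpl35 had a log2 fold change of 0.75 (SE 0.312; edgeR adjusted p = 0.199 unblocked, 0.0273 blocked), with overlap. The exception was rpl39, which lines the tunnel, at 1347, 589.5 and 962 CPM in ZMEL1 and 1133, 580.0 and 909.8 CPM in ZMELR1 (log2 fold change -0.14, edgeR adjusted p = 0.837), and each pair lay below 0 by a small amount.

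Other large subunit proteins held the highest estimate of the subunit and the one nearest 0. Rpl18 was at 1326, 1006 and 819 CPM in ZMEL1 and 1853, 1476 and 2176 CPM in ZMELR1, without overlap, with a log2 fold change of 0.81 (SE 0.262; edgeR adjusted p = 0.119 unblocked, 0.0471 blocked). Its difference was uneven over the pairs, 0.48, 0.55 and 1.41. Rpl15, rpl28, rpl36a and rpl37 were also called with the block, at log2 fold changes of 0.63, 0.55, 0.69 and 0.49 (unblocked, edgeR gave adjusted p = 0.267, 0.320, 0.363 and 0.486), and their lines overlapped. Rpl10, which joins late and is needed before the subunits can meet, was at 3321, 2680.4 and 2461 CPM in ZMEL1 and 2972, 2423 and 3027 CPM in ZMELR1, a log2 fold change of -0.01 (SE 0.239; edgeR adjusted p = 0.989). Its pairs disagreed in sign, at -0.16, -0.15 and 0.30. Rpl13a, another reference gene, had a log2 fold change of 0.58 with no overlap (edgeR adjusted p = 0.215 unblocked, 0.0531 blocked).

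In the small subunit the head, which holds the tRNAs against the mRNA, gave a median of 0.20 with 15 of 15 genes above 0 and 2 called with the block (13.3%), and the genes outside the head gave 0.34 with 19 of 20 above 0 and 4 called (20.0%). Of all genes 51.8% were above 0 and 12.9% were called higher with the block, so the head's share of calls was near the background. Rps18, a head protein that bridges the subunits and is used as a reference gene, had the highest estimate of all members. It was at 5350.1, 3224 and 3331 CPM in ZMEL1 and 7559.7, 5125 and 8731 CPM in ZMELR1, where ZMELR1 replicate 2 stood below ZMEL1 replicate 1. Its log2 fold change was 0.85 (SE 0.347; edgeR adjusted p = 0.191 unblocked, 0.0503 blocked) and its pairs were at 0.50, 0.67 and 1.39. Rps10, near the entry of the mRNA channel, was at 1385, 1066 and 1136 CPM in ZMEL1 and 1903, 1450.1 and 1952 CPM in ZMELR1, without overlap (log2 fold change 0.56, SE 0.222; edgeR adjusted p = 0.177 unblocked, 0.0409 blocked). Mutations of rps19, rps24 and rps26 are among the causes of Diamond-Blackfan anemia in humans.

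Rps24 was a member whose spread between replicates was closely shared by the lines, and it was not typical in this. The range of its pairs was 0.0555, among the narrowest, and other members were as narrow, such as rpl23 (0.0206) and rpl36 (0.0562). Among the widest were rpl18 at 0.93 and rps18 at 0.89. Rps24 was at 3180.3, 1347 and 2195 CPM in ZMEL1 and 5001, 2182 and 3588 CPM in ZMELR1, so that the lines overlapped widely. Its pairs were nonetheless 0.65, 0.70 and 0.71. The log2 fold change was 0.68 with a standard error of 0.419 (edgeR adjusted p = 0.357) without the block and 0.69 with a standard error of 0.146 (adjusted p = 0.0264) with it, the smallest adjusted p of any member with the block. Rps6, the protein that S6 kinase phosphorylates, was at 1919, 1555 and 1362 CPM in ZMEL1 and 2306, 1917 and 2525 CPM in ZMELR1 (log2 fold change 0.48, edgeR adjusted p = 0.255 unblocked, 0.101 blocked), with ZMELR1 replicate 2 just under the highest ZMEL1 library. Among the other members whose pairs differed most were rpl13 (0.25, 0.22 and 1.03) and rps4x (0.29, 0.20 and 1.01), both highest in pair 3. Rps21 was lower in all 3 pairs, by small amounts (log2 fold change -0.10, edgeR adjusted p = 0.905).

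Duplicated or closely related copies formed 8 sets of 2 genes, of which 6 are described, and in 2 of these 6 the balance between the copies differed between the lines without overlap. How reads that fit both copies were counted is not given in the sources used here, so all values of these sets are uncertain to that extent. Rps26l made up 49.4%, 51.6% and 51.8% of the counts of rps26 and rps26l in ZMEL1 and 58.3%, 58.5% and 59.9% in ZMELR1. In CPM rps26 itself stood at 482, 369 and 319 in ZMEL1 and at 456, 369 and 470.0 in ZMELR1 (log2 fold change 0.15, edgeR adjusted p = 0.700), while rps26l stood at 471, 394 and 343 and at 638, 521 and 701 (0.62, edgeR adjusted p = 0.116 unblocked, 0.0434 blocked). The log2 ratio of rps26 to rps26l fell by 0.46, and by 0.52, 0.40 and 0.47 in the pairs. An exact two-sided permutation test over the 3 and 3 libraries gave p = 0.1, the smallest this design allows (adjusted over the 8 sets, p = 0.4).

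Rpl7l1, a relative of rpl7, went the other way. Its share of the counts of rpl7 and rpl7l1 was 2.25%, 2.04% and 2.87% in ZMEL1 and 1.45%, 1.51% and 1.44% in ZMELR1, again without overlap (exact two-sided permutation test, p = 0.1, the smallest possible; adjusted p = 0.4). It had the lowest estimate of all members, a log2 fold change of -0.48 (SE 0.278; edgeR adjusted p = 0.336 unblocked, 0.0569 blocked), from 262, 145 and 267 CPM in ZMEL1 to 195, 126 and 164 CPM in ZMELR1. Rpl22l1, the paralog of the RNA-binding rpl22, came next at -0.40 (SE 0.453; edgeR adjusted p = 0.623 unblocked, 0.0798 blocked), from 655, 231 and 593 CPM to 499, 206 and 415 CPM. It made up 45.7%, 34.7% and 52.8% of the counts of both genes in ZMEL1 and 39.6%, 31.0% and 37.8% in ZMELR1, lower in each pair but with overlap (exact two-sided permutation test, p = 0.3).

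**Figure D3:**
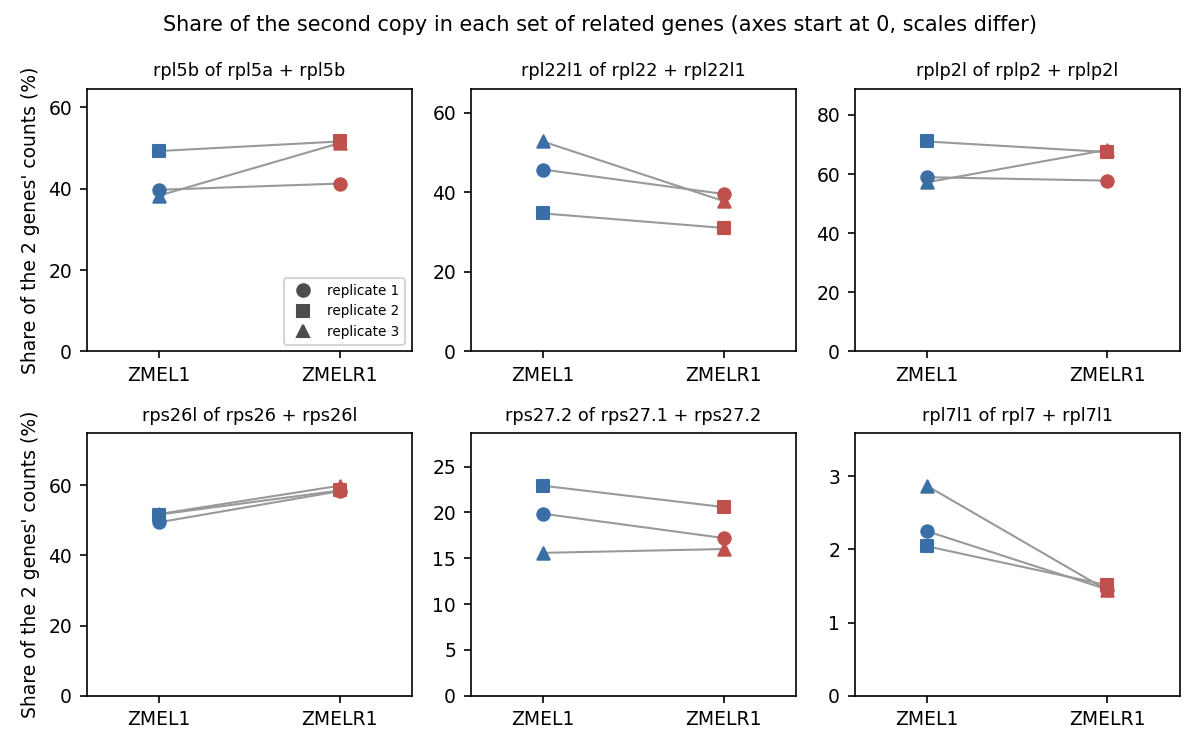
Percent of the counts of each of 6 sets of 2 related genes that fell to the second gene named, per library, with lines joining libraries of the same number; each axis starts at 0 and has its own scale. The lines separate for rps26l, which goes up, and for rpl7l1, which goes down, and overlap in the other 4 sets shown.

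In the sets of rpl5, rplp2 and rps27 the lines also overlapped, and the balance differed between replicates of a line by as much as between the lines. Rpl5b made up 39.7%, 49.2% and 38.3% of the counts of the rpl5 copies in ZMEL1 and 41.2%, 51.6% and 51.2% in ZMELR1 (exact two-sided permutation test, p = 0.2). For rplp2l the shares were 58.9%, 71.0% and 57.2% against 57.8%, 67.4% and 68.2% (p = 0.9 by the same exact test). Rps27.2 made up 15.6% to 22.9% of the rps27 copies in ZMEL1 and 16.0% to 20.6% in ZMELR1, and both copies were called with the block, at log2 fold changes of 0.60 (rps27.1) and 0.46 (rps27.2).

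Replicate 2 stood apart within both lines, and more so for some members than for others. This pattern was noticed in the data and is given as a description. The log2 CPM of replicate 2 less the mean of replicates 1 and 3 had a median over the members of -0.49 in ZMEL1 and -0.62 in ZMELR1, against 0.03 and -0.01 over all genes. It lay below 0 in both lines for 78 of 83 members and for 5896 of the 16589 genes. Across members the 2 lines' deviations had a Pearson correlation of 0.827 and a Spearman correlation of 0.940, against 0.588 and 0.577 across all genes. Large and small subunits were alike in it, with medians of -0.51 and -0.49 in ZMEL1 and -0.61 and -0.62 in ZMELR1.

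**Figure D4:**
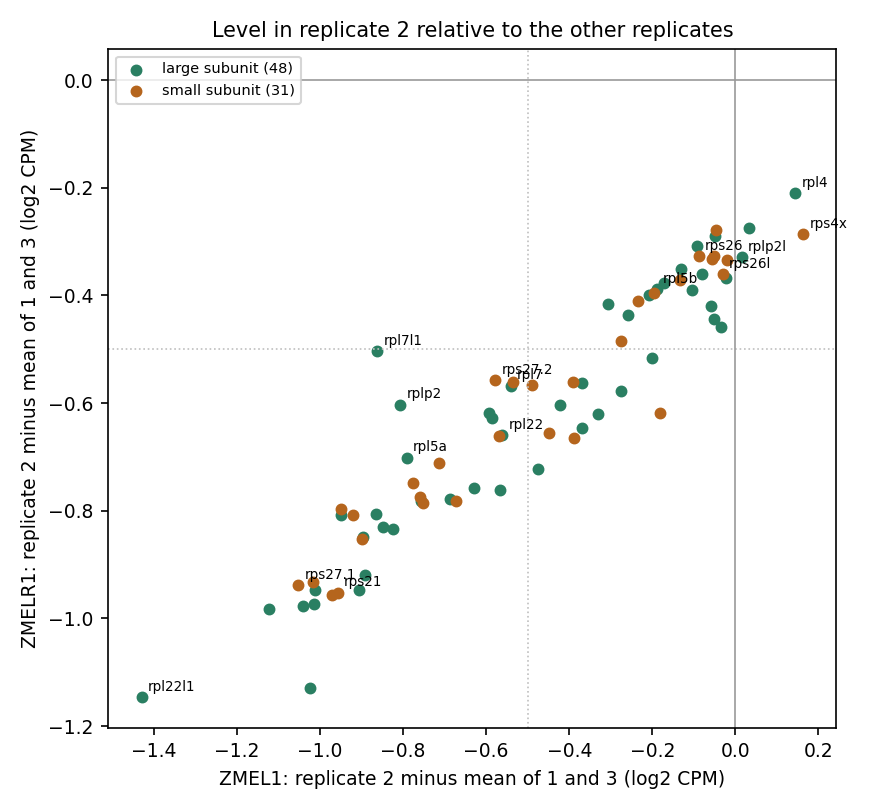
Level of 79 of the 83 ribosomal protein genes in replicate 2 relative to the mean of replicates 1 and 3 of the same line, in log2 CPM, with ZMEL1 on the horizontal and ZMELR1 on the vertical axis; dotted lines are at -0.5. Genes of both subunits spread along the diagonal from near 0 to below -1.

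The members spread widely along this axis. The lowest were rpl22l1 (-1.43 in ZMEL1 and -1.15 in ZMELR1), RPL29 (-1.12 and -0.98), rps27.1 (-1.05 and -0.94), rpl37 (-1.04 and -0.98) and rpl36a (-1.03 and -1.13). At the other end stood rps4x (0.16 and -0.29) and rpl4 (0.14 and -0.21), so that the drop was several times larger for some genes of the ribosome than for others. Below -0.5 in both lines were 41 members (24 large, 17 small, 10 of them called with the block). At or above it in both were 30 (17 large, 13 small, 6 called). Over all 16589 genes these counts were 1529 and 12295, and 12.9% of all genes were called higher with the block. The median log2 difference in pair 3 was 0.36 over the first and 0.84 over the second, where pairs 1 and 2 gave 0.22 and 0.29 against 0.24 and 0.24. By these medians, members that were low in replicate 2 differed about alike in all pairs, and those that were not had the larger differences in pair 3. Replicate 3 of both lines entered the split as well as pair 3, so the split and that difference are not independent. Replicate 3 less replicate 1 had medians over the first and second group of -0.39 and -0.49 in ZMEL1. In ZMELR1 they were -0.33 and 0.13, so the groups differed mainly in ZMELR1 replicate 3, a single library. No measure of RNA quality was used here, and the part of library quality in this pattern was not tested.

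Genes that work with or on the ribosome are given beside the members, and no difference between these lists and the members was tested. The 4 ribosomal proteins under other names had a median of 0.23 on the log2 fold change scale, with 3 above 0 and 1 below. The highest of them was gnb2l1 (Rack1, a scaffold on the small subunit) at 0.49 (unblocked, edgeR adjusted p = 0.279), and 0 of the 4 were called in either fit. Among 29 tested elongation factors and other partners whose mRNAs are of the TOP kind or bound with them, the median was 0.08. There 1 was called higher and 0 lower, namely vim, an intermediate filament gene that rose from 3.11 ± 1.39 to 26.6 ± 6.45 CPM (SD, n = 3; log2 fold change 3.09, edgeR adjusted p = 0.00605), and the block added eef2l2 among the higher and eif3g and hnrnpa1b among the lower. Blocked calls made up 6.90% of the list in each direction, against 12.9% and 12.0% of all genes. Vim is a filament gene and no part of the translation machinery.

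Regulators of these mRNAs and of S6 phosphorylation had a median log2 fold change of 0.24 over 33 tested genes. Without the block edgeR and limma-voom called 0 in either direction and DESeq2 called 1 lower. At an unadjusted p under 0.05 edgeR gave 8 higher (24.2%) and 2 lower (6.06%), against 13.2% and 11.1% of all genes. With the block edgeR called 11 higher (33.3%) and 2 lower (6.06%), against 12.9% and 12.0% of all genes. Myca, a copy of the transcription factor gene MYC that drives ribosome production, was at 20.4, 29.6 and 10.6 CPM in ZMEL1 and 5.75, 8.05 and 1.93 CPM in ZMELR1, without overlap (log2 fold change -1.93, SE 0.559; edgeR adjusted p = 0.0900 unblocked, 0.00285 blocked). Mycn, another gene of the MYC family, lay on the other side at 320.2, 313 and 263 CPM in ZMEL1 and 457, 466 and 316 CPM in ZMELR1, with overlap. Its log2 fold change was 0.47 (SE 0.203, edgeR adjusted p = 0.213 unblocked, 0.0431 blocked), and it was chosen after its values were seen. Mycb and mych, of the same family, lay below 0 at -0.22 and -0.16 (edgeR adjusted p = 0.745 and 0.815 unblocked, 0.312 and 0.438 blocked). They too were added after their values were seen. Larp1b, of the family that binds the TOP motif, had a log2 fold change of 0.56, tial1, which binds TOP mRNAs under stress, 0.54, and cnbpa, a nucleic acid-binding protein, -0.58 (edgeR adjusted p = 0.118, 0.127 and 0.122 unblocked, 0.0353, 0.0185 and 0.0270 blocked). Larp1 itself and mtor lay below 0, at -0.20 and -0.24 (edgeR adjusted p = 0.570 and 0.446 unblocked, 0.328 and 0.160 blocked). Both were added after their values were seen. Of the 33 genes, 20 lay above 0 and 13 below. Chaperones and carriers of ribosomal proteins had a median of -0.12 over 21 tested genes, with 0 called by edgeR, limma-voom or DESeq2 without the block. At an unadjusted p under 0.05 edgeR gave 0 higher and 3 lower (14.3%), against 13.2% and 11.1% of all genes. With the block 3 (14.3%) were called lower, near the 12.0% of all genes. These were rrs1, which in yeast helps load the 5S RNA proteins, the histone chaperone nap1l1 and the importin ipo9.

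Proliferation genes stood on the opposite side from the ribosomal protein genes. All 20 had a log2 fold change below 0, against 7994 of the 16589 genes tested, and their median was -0.83. Without the block edgeR and limma-voom called 0 and DESeq2 called 5 lower. At an unadjusted p under 0.05 edgeR gave 0 higher and 6 lower (30%), against 13.2% and 11.1% of all genes. With the block 9 (45%) were called lower, against 12.0% of all genes. Among them was pcna, the sliding clamp of DNA replication, at 786, 586 and 602 CPM in ZMEL1 and 335, 325 and 106 CPM in ZMELR1. The list's median deviation from the mean of all libraries was 0.66, 0.65 and 0.27 in ZMEL1 and -0.17, 0.23 and -1.72 in ZMELR1 (log2 CPM). ZMELR1 replicate 3, the library with the lowest proliferation genes and the fewest counts, belongs to the pair in which the ribosomal protein genes differed most, and the part of proliferation in that difference was not tested.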

How the data were processed

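RNA of ZMEL1 and ZMELR1 was compared (3 libraries each). The authors mapped the reads with TopHat2 (assembly Zv9) and deposited HTSeq counts, whole numbers of reads per gene name. Strand setting and counting mode are not given in the sources used here, and 0 columns were left out.

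Counts were compared in R 4.3.3 with edgeR 4.0.16 (filterByExpr with a least count of 10 and least total of 15, TMM factors 0.935 to 1.085, quasi-likelihood F test by line, Benjamini-Hochberg adjustment). Levels are TMM-scaled CPM, and a prior count of 2 entered the log2. Standard errors of edgeR estimates were worked back as the absolute log2 fold change divided by the square root of F. Counts leave sampling error far below the spread between libraries for nearly all members. The replicate numbers pair the libraries: over all genes, deviations in log2 CPM from the means of the lines had correlations of 0.557, 0.588 and 0.509 for equal numbers. For unequal numbers they were -0.504 to -0.0285. A gene's deviations sum to 0 within a line, so these negative values follow on average from the positive ones and are no separate evidence. What the numbers share is not given in the sources used here, so the fit without the block is the main one, and calls with the block are given beside it. Over the 83 members alone the same-number correlations were 0.835, 0.827 and -0.0379, and those of unequal numbers -0.891 to 0.721. The highest of the latter was between ZMEL1 replicate 3 and ZMELR1 replicate 1, so number 3 did not pair over the members.

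Alternatives were RLE factors, library size only, scaling without the members, 2 other filters, limma-voom (limma 3.58.1), DESeq2 1.42.0, the block, each library left out, the libraries numbered 1 and 2, copies summed, and members under stricter or wider naming. The other pairs of numbers, edgeR's older fit, and other tools or scalings with the block were chosen after seeing the data. Exact permutation tests used scipy 1.17.1 and numpy 2.4.6, and figures matplotlib 3.10.9. The edgeR fits with and without the block were tried first on simulated counts. These held no effect shared by replicate number and no changes as small as those of the members. That trial therefore could not test the block on paired libraries, or the fits at the members' size of change.

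Members and gene lists were chosen with earlier results of these data known. For that reason the planned exact test of the share of counts is not given. Named genes are members called with or without the block, the 5 of smallest p in each direction, copies, the 5 whose pairs differ most, rare members, reference genes, rps6, rpl5 and rpl11 copies, and up to 4 of each other list. Mycn, mycb, mych, larp1 and mtor were added to these after their values were seen. A further part of the rule, levels per coding length, could not be applied without lengths, so levels are not compared between genes. Names were matched to NCBI gene names (73 of 83) and to RefSeq genes of GRCz12tu (81 of 83). Coordinates are not used here, and some genes that the rule takes are not reported here.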

Additional observations from a re-analysis of the deposited data

How the results depend on the processing

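Without the replicate block 0 members were called higher or lower under every scaling, filter, tool and left-out library tried. With the replicate block 17 members were called higher with TMM, beside 2143 of all 16589 genes. There were 21 by library size (1827 of all genes), 21 by edgeR's older fit (2059) and 25 with limma-voom (2170). RLE factors gave 7 (2017 of all genes), as did scaling without the members (2033). DESeq2 called 27 (2218 of 27126 names). On the libraries numbered 1 and 2 there were 39 (3935 of 16669 genes). On the numbers 1 and 3 or 2 and 3 there were 0 (1215 of 16653 and 476 of 16844 genes). Called lower with the block were 2 on the numbers 1 and 2 (4392 of all 16669 genes tested there). DESeq2 and RLE factors each gave 1 (2588 of 27126 names and 2124 of 16589 genes), and 0 were called otherwise. DESeq2 was given all 27126 names without the filter, so its shares of all genes are not comparable with the others. Fits on 2 pairs have few residual degrees of freedom. The median log2 fold change of the members was 0.17 to 0.58 with single libraries left out and 0.21 to 0.42 otherwise. Members above 0 numbered 77 to 79 of 83 under other scalings, filters and tools, and 63 (without ZMEL1 replicate 2 or ZMELR1 replicate 1) to 81 with single libraries left out. The difference in the share of counts was 3.07 to 5.85 points with single libraries left out, and 4.20 with the replicate block, as without it.

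Among the named members the sign turned for 5 of small change. Leaving out single libraries gave -0.131 to 0.125 for rpl10, -0.0667 to 0.391 for rpl22, -0.423 to 0.17 for rpl39, -0.426 to 0.183 for rps21 and -0.0137 to 0.326 for rps26. Rpl10 was also at 0.0406 on the libraries numbered 1 and 3, at 0.0845 on 2 and 3 and at 0.000987 with limma-voom. On the libraries numbered 1 and 2, rpl22 was at -0.0293 (-0.0175 with the replicate block) and rps26 at -0.0821 (-0.0777 with it). The cause was not tested. Per gene, the replicate block was followed only on all libraries and on the libraries numbered 1 and 2. In these fits 41 values of named members passed the threshold that did not pass in the fit without the block. A gene could enter from each fit, and members called with the block were named for that reason. Of all genes, 12.9% were called higher on all libraries and 23.6% on the numbers 1 and 2.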
